A study of Rattus norvegicus with 6 samples.

Results

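The genes described here encode the subunits of the proteasome. They are the genes whose rat RefSeq symbol begins with Psma, Psmb, Psmc or Psmd followed by a digit, without the 3 immunoproteasome genes Psmb8, Psmb9 and Psmb10, and with a probe on the array. This gave 35 genes of 15645 that could be named, and all 35 were among the 12130 genes tested. The rule uses names only. It matched 40 protein-coding symbols, and Psmd11, Psmb11, Psmb3l1, Psmb3l2 and Psmb6l1, which had no matched probe, were not analysed here. It also takes in Psmc3ip, which encodes a meiotic recombination cofactor and no proteasome subunit, and Psma8, a core subunit of the testis. These were kept in all counts, and Psmc3ip is among the genes counted as lower below. The closing section gives the median, the core minus cap difference and the calls without them and without the assembly chaperones.

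RNA was taken from renal cortex. The 6 rats were male Sprague-Dawley animals (Crl:CD(SD)), bought at 5 weeks of age. The 3 control animals received corn oil for 4 weeks, and the 3 treated animals received 4-hydroxy-m-phenylenediammonium dichloride at 100 mg/kg/day over the same period. The compound is the dihydrochloride of 2,4-diaminophenol. The route and the vehicle of the treated animals are not given in the sources used here, and 1 Cy3 array was hybridised per animal. The comparison asks whether transcripts of the proteasome differ between dosed and undosed cortex, and whether those of its core differ from those of its cap.

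The proteasome degrades proteins that carry ubiquitin chains. Its core particle is a barrel of stacked rings, with outer rings of alpha subunits (Psma genes) that gate the entrance and inner rings of beta subunits (Psmb genes) that hold the proteolytic sites. The cap, or regulatory particle, has a base with a ring of ATPases (Psmc genes) that unfold and thread the substrate, and a lid that removes the ubiquitin (both with Psmd genes). Proteasome genes are known to be induced through antioxidant response elements, by the transcription factor NRF1 (Nfe2l1) when proteasome activity falls, and in some tissues by NRF2 (Nfe2l2) under electrophilic stress.

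A level here is the log2 signal of a probe minus the 75th percentile of its array, so that a level of 4 lies 4 doublings above that point. The share of probes well above background was 66.0%, 67.7% and 63.1% on the control arrays. It was higher on every treated array, at 69.6%, 69.0% and 68.9%. The number of arrays limits the precision. The 3 controls shared slide 1 and the 3 treated animals slide 2, each with its own scan, and an effect of slide or scan cannot be told apart from one of treatment. The cortical label was borne out by its markers. All 6 proximal tubule markers were tested and had levels of 5.59 (Cubn) to 8.43 (Slc34a1) over the 6 arrays. All 6 also had a lower treated mean (56.5% of all genes did), and the median of their log2 fold changes was -0.11. Aqp1, a water channel, was called lower, as were 1.33% of all genes (log2 fold change -0.58, limma adjusted p = 0.0341). All of these markers but Cubn had a mean level above 6. Of the 361 genes tested in that range, 76.2% had a lower treated mean, and their median was also -0.11. Red cell markers differed between the groups. Of 8, 7 were tested and had a higher treated mean, against 43.5% of all genes. No overlap was found for 6 of them (14.1% of all genes), and 1, Gata1, was called (3.03% of all genes were called higher). Their summed linear level ran from 146 to 189 in controls and from 223 to 333 in treated animals. This sum is mostly that of Hbb, whose mean level of 7.67 lay far above the next, 3.09 for Slc4a1. Hbb itself was not called (log2 fold change 0.80, limma adjusted p = 0.0660). The control arrays gave no signal well above background for Gata1, an erythroid transcription factor, so it was tested through the treated arrays alone. Its call and its lack of overlap therefore add nothing to the red cell difference. The other markers without overlap were Ahsp, Alas2, Epb42, Hbb and Slc4a1. Leukocyte markers summed to 7.71 to 9.67 in controls and 8.25 to 10.04 in treated animals, over 7 of 8 tested. Single leukocyte markers went both ways, and 3 of the 7 had a higher treated mean. Cd52 was higher without overlap (log2 fold change 2.41), and Coro1a and Itgam were lower without overlap (-0.32 and -0.66). The 7 spike-in transcripts that were well above background on every array, which are added to each sample in fixed amounts, had a median log2 difference of -0.13 between treated and control (from -0.19 to -0.065). The part of red cells, of proximal tubule or of this offset in the values below was not tested, and in bulk tissue a change in cell numbers and a change in RNA per cell cannot be told apart.

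No proteasome gene passed the test. With limma and Benjamini-Hochberg adjustment over all genes, 0 of 35 were called higher and 0 lower after treatment (adjusted p under 0.05), beside 3.03% and 1.33% of all genes tested, or 4.36% in either direction. Differences were small and mostly downward. A lower treated mean was found for 28 of 35 genes, against 56.5% of all genes, and the median log2 fold change of the 35 genes was -0.10, against -0.030 for all genes. With quantile scaling 24 had a lower mean and the median was -0.054, which relative to that of all genes is -0.033 in place of -0.070. At an unadjusted p under 0.05, 12 of the 35 genes (34.3%) were lower and 1 was higher, beside 13.2% and 11.8% of all genes (25% in either direction). This count depended on the scaling and on the probe. It was 4 lower and 3 higher with quantile scaling and 7 lower with the mean of a gene's probes. When 1 array was left out, it was from 4 to 10 lower. The shares over all genes under these alternatives are not given here, so these counts have no baseline beside them. The groups did not overlap for 22 genes (62.9%, against 32.8% of all genes), 18 of them with every treated value below every control value (51.4%, against 18.7% of all genes) and 4 with every treated value above (11.4%, against 14.1%). With a normexp background, 4 genes were called lower (Psma4, Psma5, Psmb5 and Psmd4). That background also raised the number of genes called lower over all genes tested, and the closing section gives those counts.

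Averaged over the 35 genes, the deviation from the control mean was 0.0091, 0.012 and -0.021 in the controls. In the treated animals it was -0.089, -0.10 and -0.056. Every treated array lay below every control array in this average, and treated replicate 3 lay closest to the controls. The median deviation of the 7 spike-in transcripts was 0.020, -0.057 and 0.030 in the controls. In the treated animals it was -0.18, -0.17 and -0.048, again with treated replicate 3 closest to the controls. The part of this offset in the average of the 35 genes was not tested. Individual genes ranged from a log2 fold change of -0.28 for Psmd4 to 0.29 for Psma2. The upper limit of the limma 95% interval was 0.57 for Psma2 and at most 0.26 for the other 34 genes, and the lower limit was lowest for Psma8 at -0.61.

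**Figure D1:**
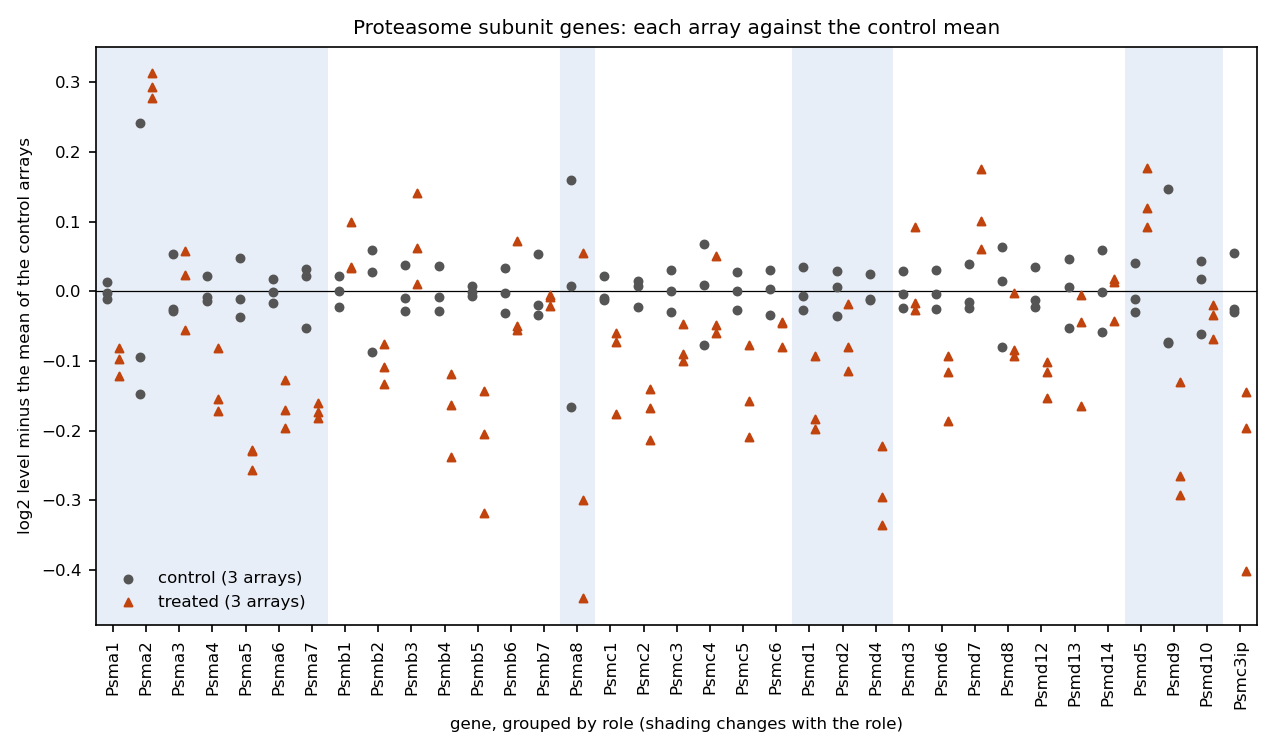
Log2 level of each proteasome gene on each array minus the mean of the 3 control arrays, with genes along the x axis grouped by role, circles for control and triangles for treated animals. All 3 triangles lie below all 3 circles for 18 genes and above them for 4, and Psma2 has 1 control value near the treated ones.

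RefSeq promoter windows (assembly GRCr8, 250 bases before to 50 after the start site) were matched for 31 of the 35 genes; Psma7, Psmd6, Psmd12 and Psmd14 were the others. They were searched on both strands for the core letters of the antioxidant response element, TGACNNNGC (N is any base), and for the CCAAT box; in Psmb2 the end of a CCAAT is the start of a match to the element. The element's letters were found in the windows of 7 of 31 genes (22.6%), against 12.1% of 33469 windows of this length over all genes. The 7 were Psma3, Psmb2, Psmb5, Psmb6, Psmd1, Psmd3 and Psmd9. CCAAT was found in 17 of 31 (54.8%), against 37.5% of all windows. The median log2 fold change was -0.11 for the 7 genes with the element's letters, 5 of them with a lower treated mean. For the 24 without it was -0.075, with 19 lower. A match is a description of letters in a window and no evidence of a bound site.

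The windows printed here are those of Psmb5, Psmd1 and Psmd9, which hold the letters and whose treated values all lay below the control values, of Psmd4, which had the largest decrease and holds none, and of Adrm1, a cap gene with another symbol that was called higher. Each is written 5′ to 3′ on the strand of the gene, with TGACNNNGC or its reverse complement in capitals.
Psmb5 (chr15:32047330-32047629, minus strand): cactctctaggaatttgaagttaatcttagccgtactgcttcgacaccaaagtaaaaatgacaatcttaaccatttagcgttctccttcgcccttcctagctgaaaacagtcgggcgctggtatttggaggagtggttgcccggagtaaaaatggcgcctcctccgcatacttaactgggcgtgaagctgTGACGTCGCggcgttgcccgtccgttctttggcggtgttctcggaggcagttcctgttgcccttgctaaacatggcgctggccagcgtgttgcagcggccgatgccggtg
Psmd1 (chr9:94157721-94158020, plus strand): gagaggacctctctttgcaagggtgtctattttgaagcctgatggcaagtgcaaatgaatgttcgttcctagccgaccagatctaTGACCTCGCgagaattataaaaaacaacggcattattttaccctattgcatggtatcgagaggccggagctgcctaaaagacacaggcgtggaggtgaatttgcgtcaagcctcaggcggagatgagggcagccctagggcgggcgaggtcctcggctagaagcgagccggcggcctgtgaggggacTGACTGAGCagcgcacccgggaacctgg
Psmd9 (chr12:39018215-39018514, minus strand): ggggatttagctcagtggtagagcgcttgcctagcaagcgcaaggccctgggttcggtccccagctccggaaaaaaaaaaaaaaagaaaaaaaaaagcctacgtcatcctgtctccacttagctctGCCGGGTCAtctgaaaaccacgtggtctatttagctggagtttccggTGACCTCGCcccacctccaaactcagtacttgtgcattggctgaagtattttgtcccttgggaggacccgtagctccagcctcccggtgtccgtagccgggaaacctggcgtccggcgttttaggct
Psmd4 (chr2:185297152-185297451, minus strand): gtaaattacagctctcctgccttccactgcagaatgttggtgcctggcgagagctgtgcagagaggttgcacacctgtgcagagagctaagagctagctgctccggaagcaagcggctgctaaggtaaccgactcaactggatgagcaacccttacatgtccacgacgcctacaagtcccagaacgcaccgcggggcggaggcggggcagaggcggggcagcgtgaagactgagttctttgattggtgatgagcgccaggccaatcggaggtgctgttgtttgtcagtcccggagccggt
Adrm1 (chr3:187642793-187643092, plus strand): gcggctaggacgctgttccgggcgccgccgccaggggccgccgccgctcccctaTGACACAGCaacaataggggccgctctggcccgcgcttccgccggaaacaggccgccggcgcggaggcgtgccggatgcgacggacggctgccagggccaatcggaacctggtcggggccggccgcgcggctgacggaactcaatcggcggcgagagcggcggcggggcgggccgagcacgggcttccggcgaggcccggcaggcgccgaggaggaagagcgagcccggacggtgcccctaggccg
The match in Psmb5 reads TGACGTCGC and begins at position -60 with the start site as 0. Psmd1 holds TGACCTCGC at -165 and TGACTGAGC at 22. Psmd9 holds GCCGGGTCA, the reverse complement, at -124 and TGACCTCGC at -77. Adrm1 holds TGACACAGC at -196.

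Of the 7 alpha ring genes, 0 passed the test (4.36% of all genes did). At an unadjusted p under 0.05, 4 were lower and 1 was higher, beside 13.2% and 11.8% of all genes. The median log2 fold change of the ring was -0.14. Psma5, which encodes the alpha 5 subunit, had the lowest p of the ring. Its levels were 3.62, 3.68 and 3.59 in controls and ran from 3.37 to 3.403 in treated animals, so that the groups were apart by more than the spread within either. The treated mean of 3.39 ± 0.016 against 3.63 ± 0.044 (SD, n = 3 each) gave an adjusted p of 0.0626 in limma, for a log2 fold change of -0.24 (SE 0.052). Psma4, Psma6 and Psma7, subunits of the same ring, had log2 fold changes of -0.14, -0.16 and -0.17 with no overlap between groups. Their adjusted p-values in the limma fit were 0.190, 0.124 and 0.122. Psma1 also showed no overlap, with controls from 4.07 to 4.09 and treated animals from 3.95 to 3.99 (log2 fold change -0.10, limma adjusted p = 0.265).

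The remaining alpha genes did not follow these. Psma2 levels were 2.73, 2.78 and 3.12 in controls and 3.17, 3.16 and 3.19 in treated animals. The third control animal thus lay just below the treated animals, and the control spread was wide (2.88 ± 0.21 against 3.17 ± 0.017, SD, n = 3 each). Its log2 fold change of 0.29 (SE 0.11), with a limma adjusted p of 0.180, ranged from 0.22 to 0.42 when 1 array was left out. Psma3 was level between the groups, at 3.97, 4.05 and 3.97 in controls and 3.94, 4.02 and 4.05 in treated animals (log2 fold change 0.0085, 95% interval -0.14 to 0.16). Psma8, the testis subunit, lay near the bottom of the measured range at -4.96 to -5.29 in controls and -5.07 to -5.56 in treated animals. It was well above background on 2 of 3 control arrays and on all treated arrays, and its groups overlapped (log2 fold change -0.23 with SE 0.15, limma adjusted p = 0.404).

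The beta ring was divided. Of 7 genes, 0 passed, 2 were lower at an unadjusted p under 0.05 (13.2% of all genes), and the median log2 fold change was -0.012. The 3 catalytic subunits differed in their values. Psmb5 encodes the subunit with chymotrypsin-like activity, and its promoter window is the first of those printed. Its levels were 4.70, 4.69 and 4.69 in controls and 4.37, 4.49 and 4.55 in treated animals. The control values nearly coincided and every treated value was lower (log2 fold change -0.22 with SE 0.064, limma adjusted p = 0.109). Psmb6, which encodes the subunit with caspase-like activity, had 2.87, 2.90 and 2.84 in controls and 2.82, 2.81 and 2.94 in treated animals. Psmb7, the subunit with trypsin-like activity, had 3.13, 3.20 and 3.11 in controls and 3.14, 3.13 and 3.14 in treated animals. The groups overlapped for both, with log2 fold changes of -0.012 (95% interval -0.16 to 0.14) and -0.011 (-0.14 to 0.12). The difference between Psmb5 and the other catalytic genes was not tested.

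Among the structural beta subunits, Psmb4 had 5.10, 5.14 and 5.07 in controls and 4.86, 4.94 and 4.98 in treated animals (log2 fold change -0.17, limma adjusted p = 0.140). Its other probe gave -0.024 with overlapping groups. Psmb2 had a log2 fold change of -0.11 with overlapping groups. Psmb3 and Psmb1 had higher treated means, with log2 fold changes of 0.071 and 0.056 (limma adjusted p = 0.498 and 0.538), though the other probe of Psmb3 gave -0.18. For Psmb1 every treated value, from 3.43 to 3.50, exceeded every control value, from 3.38 to 3.42.

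**Figure D2:**
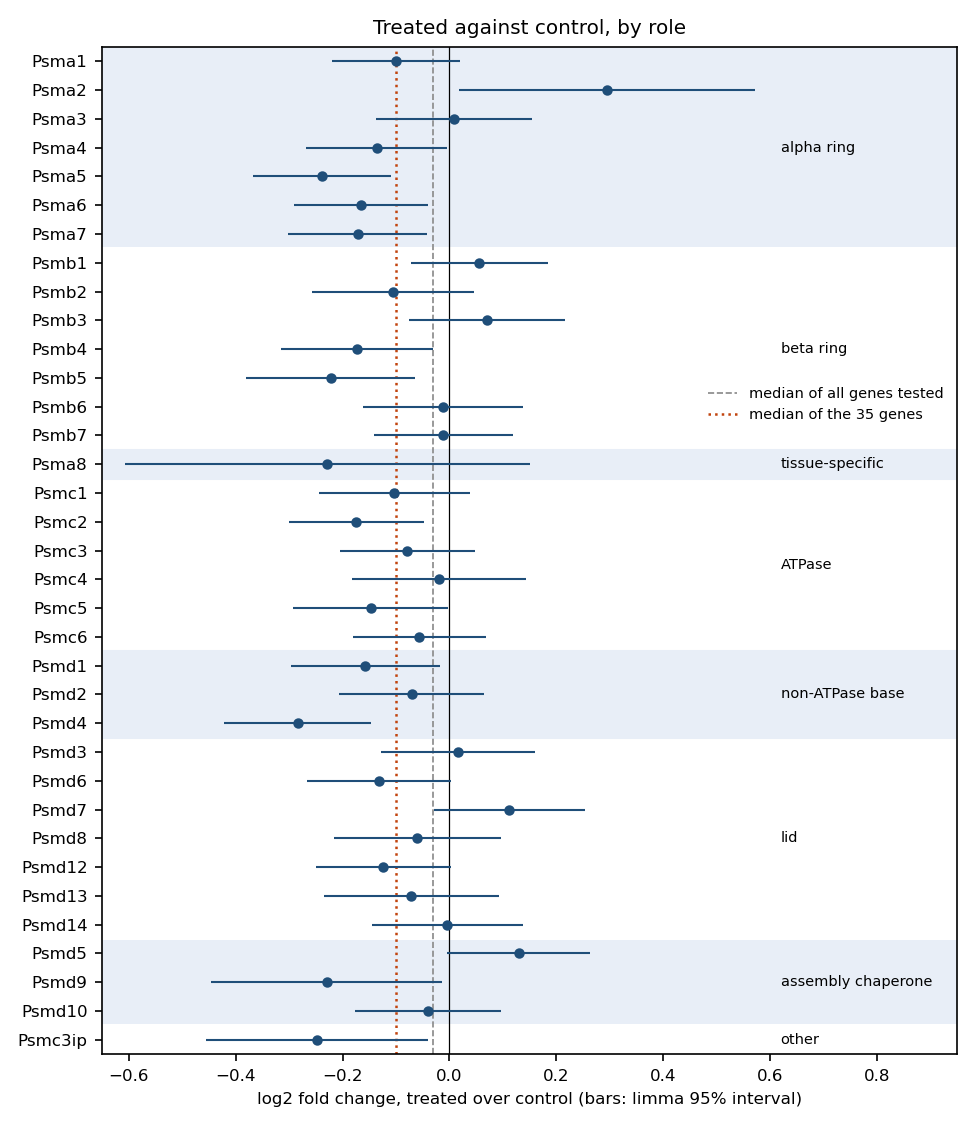
Log2 fold change of each proteasome gene, treated over control, on the x axis, with genes in rows by role, points for the estimate and bars for the limma 95% interval. The dotted line is the median of the 35 genes (-0.10) and the dashed line that of all genes tested (-0.030), and Psma2 is the only gene whose bar lies wholly above 0.

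All 6 ATPase genes of the base had a lower treated mean, as did 56.5% of all genes. Their median log2 fold change was -0.091, with a range from -0.17 for Psmc2 to -0.019 for Psmc4. None passed the limma test (0 of 6), and 2 were lower at an unadjusted p under 0.05 (13.2% of all genes). Treated values lay wholly below the controls for 5 of the 6, against 18.7% of all genes. Psmc2, which encodes the ATPase Rpt1, had levels of 5.05, 5.02 and 5.05 in controls and 4.87, 4.82 and 4.90 in treated animals. All treated values were below the controls (log2 fold change -0.17, SE 0.051, limma adjusted p = 0.114). Psmc5, the ATPase Rpt6, had a log2 fold change of -0.15 (limma adjusted p = 0.192). Psmc1, Psmc3 and Psmc6 also had no overlap between groups, with smaller log2 fold changes of -0.10, -0.079 and -0.056. Psmc4 was the exception, with overlapping values from 2.40 to 2.55 in controls and 2.42 to 2.53 in treated animals.

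The 3 other base subunits are scaffolds or ubiquitin receptors. Psmd4 encodes the ubiquitin receptor Rpn10, and it had the lowest p and the largest decrease of all 35 genes. Its levels were 3.76, 3.79 and 3.76 in controls and 3.43, 3.47 and 3.55 in treated animals. The lowest control lay well above the highest treated animal, and the means of 3.77 ± 0.021 and 3.49 ± 0.058 (SD, n = 3 each) corresponded to 1.22-fold lower signal (log2 fold change -0.28; SE 0.056). The limma adjusted p of 0.0524 missed the threshold. It was 0.0472 with the stricter filter on dim probes, 0.0278 with an intensity trend in the variance prior and 0.0227 with a normexp background, and from 0.0992 to 0.145 without 1 array. Psmd1, the scaffold Rpn2, had 5.46, 5.42 and 5.40 in controls and 5.25, 5.23 and 5.34 in treated animals, again without overlap (log2 fold change -0.16, limma adjusted p = 0.162). Psmd2, the scaffold Rpn1, had 5.72, 5.74 and 5.67 against 5.63, 5.60 and 5.69, where the groups overlapped (log2 fold change -0.071, limma adjusted p = 0.466).

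The lid genes differed little between the groups. Of its 7 genes, 0 passed the limma test and 0 had an unadjusted p under 0.05 (25% of all genes did). The median log2 fold change of the lid was -0.060. Psmd14 encodes Rpn11, the metalloprotease that cleaves ubiquitin chains from the substrate. Its levels were 1.13, 1.195 and 1.08 in controls and 1.15, 1.09 and 1.15 in treated animals, with a log2 fold change of -0.0038 (95% interval -0.15 to 0.14). Psmd6 and Psmd12, subunits of the lid scaffold, had every treated value below the controls, with log2 fold changes of -0.13 and -0.12 (limma adjusted p = 0.209 and 0.207). Psmd7, the inactive partner of Rpn11, had every treated value above the controls (1.67 to 1.79 against 1.59 to 1.65; log2 fold change 0.11, limma adjusted p = 0.289). Another probe of Psmd7 had every treated value below the controls (1.40 to 1.49 against 1.56 to 1.77; log2 fold change -0.22), and the last one gave -0.041, so its direction depends on the probe. Psmd3, Psmd8 and Psmd13 had log2 fold changes of 0.016, -0.060 and -0.071 with overlapping groups.

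Psmd5, Psmd9 and Psmd10 encode chaperones that help to assemble the base and are absent from the finished particle. They differed in direction. Psmd5 levels were 0.50, 0.48 and 0.55 in controls and 0.60, 0.69 and 0.63 in treated animals, all higher (log2 fold change 0.13, limma adjusted p = 0.215). Psmd9 had 4.15, 3.93 and 3.93 in controls and 3.87, 3.74 and 3.71 in treated animals, all lower (log2 fold change -0.23, limma adjusted p = 0.181), though its other probes gave -0.049 and -0.054. Psmd10, also known as gankyrin, overlapped (log2 fold change -0.040). Psmc3ip, the gene outside the proteasome, had -0.46, -0.37 and -0.45 in controls and -0.62, -0.83 and -0.57 in treated animals (log2 fold change -0.25, limma adjusted p = 0.145).

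Core and cap genes had similar fold changes. The 15 Psma and Psmb genes had a median of -0.11 and a mean of -0.076 in log2 fold change, and the 20 Psmc and Psmd genes a median of -0.075 and a mean of -0.087, so the order of the groups depends on the summary used. Lower treated means were found for 11 of 15 core genes and 17 of 20 cap genes (56.5% of all genes), and treated values wholly below the controls for 7 and 11 (18.7% of all genes). The difference between the average deviation of core and cap genes was -0.0034, -0.0030 and 0.0064 in the controls, against 0.022, 0.015 and -0.0016 in the treated animals. The treated arrays averaged 0.012 ± 0.012 and the controls varied by 0.0056 (SD, n = 3 each), with the third treated array inside the control range. The difference of 0.012 was 0.043 with a normexp background, and 0.020 without Psmc3ip, Psma8 and the chaperones, where the treated SD was 0.013. By role, the median log2 fold change was -0.16 for the non-ATPase base, -0.14 for the alpha ring, -0.091 for the ATPases, -0.060 for the lid and -0.012 for the beta ring. These medians summarise 3 to 7 genes each, and differences between them were not tested.

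Over all genes, brighter genes had lower fold changes. Among all genes tested, the median log2 fold change was 0.019 for genes with a mean level below 0, -0.042 from 0 to 2, -0.057 from 2 to 4, and -0.091 from 4 to 6. The proteasome genes are mostly bright. For the 15 with a level from 4 to 6 the median was -0.14, and 14 of them had a lower treated mean, against 72.9% of the 964 genes in that range. In the same range 12 of 15 had treated values wholly below the controls, against 32.5% of genes. The 13 from 2 to 4 had a median of -0.056, beside -0.057 for all 2150 genes there, and the 5 from 0 to 2 one of 0.016. The 2 below 0, Psma8 and Psmc3ip, ran against this order with a median of -0.24. Across the 35 genes, which share arrays and scaling, Pearson's r between level and log2 fold change was -0.10 and Spearman's rho -0.38, and over all 12130 genes they were -0.19 and -0.22. The part of signal level in the decrease of the bright genes was not tested.

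**Figure D3:**
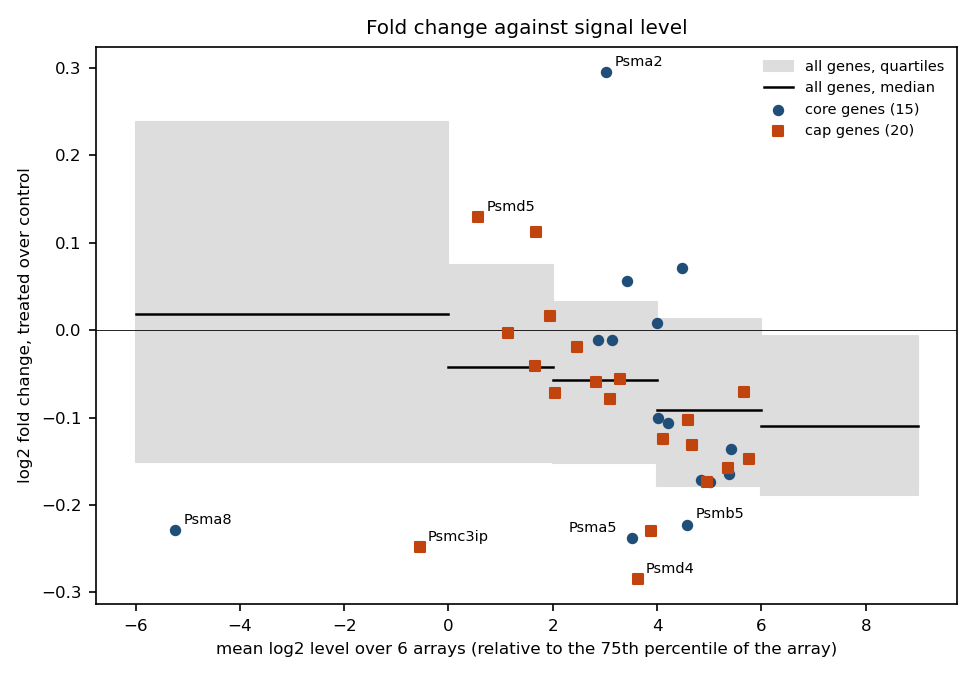
Log2 fold change of each proteasome gene, treated over control, against its mean log2 level over the 6 arrays, with circles for core and squares for cap genes. Black lines give the median of all genes tested in each range of levels, which descends from 0.019 to -0.11, and grey boxes their quartiles; most genes above a level of 4 lie at or below the line.

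Different probes of one gene gave different answers in some cases. Of the 35 genes, 18 had more than 1 probe above background, and in 6 of these a further probe had the opposite sign (Psma6, Psmb3, Psmd12, Psmd2, Psmd6 and Psmd7). The 23 further probes had a median log2 fold change of -0.044, smaller than that of the brightest probes, and 17 of them were lower in treated animals. Psmd6 was the widest case. Its dimmer probe had 1.44, 1.49 and 1.41 in controls and 1.84, 1.81 and 1.81 in treated animals, all higher (log2 fold change 0.38), where its bright probe gave -0.13. The dimmer probe of Psma3 also had higher treated values throughout, with a log2 fold change of 0.24 beside 0.0085. The dimmer probe of Psma4 gave nearly the same value as the bright one (-0.13 and -0.14). Those of Psmc2 and Psmd1 gave -0.044 and -0.050, and those of Psma6 and Psmd12 0.018 and 0.025. RefSeq lists 36 pseudogene symbols that fit the naming rule, and how far signal from such copies enters these probes was not tested.

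Genes that work with the proteasome but carry other symbols were described as a list of 44, of which 37 were tested. In the limma fit 1 was called higher (2.70%) and 0 lower, against 3.03% and 1.33% of all genes, and at an unadjusted p under 0.05, 4 were higher and 4 lower (10.8% each, beside 11.8% and 13.2% of all genes). The median log2 fold change was -0.025. The called gene was Adrm1, which encodes Rpn13, a ubiquitin receptor of the cap that also docks the deubiquitinase Uchl5. Its levels were -1.30, -1.36 and -1.32 in controls and -0.84, -0.89 and -0.83 in treated animals, far apart relative to the spread within each group. The means of -1.33 ± 0.028 and -0.85 ± 0.033 (SD, n = 3 each) gave 1.39-fold higher signal (95% interval 1.27 to 1.52; log2 fold change 0.48 with SE 0.051, limma adjusted p = 0.0211). The array holds 1 named probe for Adrm1. Adrm1 was called in 8 of 16 settings. The call was lost without any 1 of the 6 arrays (limma adjusted p from 0.0535 to 0.0839), where the log2 fold change stayed between 0.46 and 0.49. It was also lost with the replicate number as a block (limma adjusted p = 0.114) and without a filter on dim probes (limma adjusted p = 0.0529). Calls over all genes were few or absent in those fits too, so the lost call says little of Adrm1 itself. Sem1, the small cap subunit Rpn15, had instead treated values below the controls, by little in treated replicate 3 (5.352 against 5.355; log2 fold change -0.25, limma adjusted p = 0.182), and its other probe gave -0.25 as well.

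The 3 ubiquitin receptors of the cap thus gave different values in the same animals, with log2 fold changes of -0.28 for Psmd4, -0.071 for Psmd2 and 0.48 for Adrm1. The deubiquitinase gene Usp14 lay at 0.036 with overlapping groups, and Uchl5 was not among the genes tested. Of the assembly factors, Pomp, the maturation factor of the core, had a log2 fold change of -0.12 and Psmg2 one of 0.069, both with overlapping groups.

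The immunoproteasome genes Psmb8, Psmb9 and Psmb10 encode beta subunits that replace the standard catalytic ones in immune cells and under interferon. Psmb8 had 0.80, 0.97 and 0.61 in controls and 0.73, 0.40 and 0.90 in treated animals. The log2 fold changes of the 3 genes were -0.11, 0.065 and -0.029, their groups overlapped, and 0 passed at an unadjusted p under 0.05 (25% of all genes did). In all 3, treated replicate 2 had the lowest value of the 6 arrays and treated replicate 3 the highest of the treated animals.

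Among the activators and the inhibitor of the core, 2 of 5 were higher at an unadjusted p under 0.05, as were 11.8% of all genes, and 0 passed. Psmf1, the inhibitor PI31, had 2.76, 2.79 and 2.79 in controls and 2.92, 2.99 and 2.93 in treated animals (log2 fold change 0.17, limma adjusted p = 0.125), and its other probes gave 0.24 and 0.025. Psme3, the nuclear activator PA28 gamma, had a log2 fold change of 0.19 (limma adjusted p = 0.172) and its other probe 0.22. Psme1, another PA28 subunit, was also higher on every treated array (0.11), while its partner Psme2 was not (-0.084).

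Of the 10 shuttle and extraction factors, 0 passed and 0 had an unadjusted p under 0.05 (25% of all genes did). Ubqln2, a ubiquilin, had the smallest p of these with a log2 fold change of 0.082, and Vcp, the segregase that extracts ubiquitylated proteins, had -0.015. Uba6, an activating enzyme, had a log2 fold change of 0.19 with overlapping groups.

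The transcription factor genes also missed the threshold. Nfe2l1 had 0.94, 0.86 and 0.84 in controls and 1.07, 1.23 and 1.07 in treated animals, all higher (log2 fold change 0.24, SE 0.070, limma adjusted p = 0.108). Nfe2l2 had 3.84, 3.96 and 4.05 in controls and 3.75, 3.82 and 3.64 in treated animals, all lower at this probe (log2 fold change -0.21, limma adjusted p = 0.188), whereas its other probe gave -0.012. Keap1, the adaptor that directs NRF2 to degradation, had a log2 fold change of -0.16 (limma adjusted p = 0.151). For scale, Nqo1, a quinone reductase and NRF2 target chosen here after its values were known, had -2.93, -2.57 and -3.21 in controls and -0.99, -0.062 and 0.49 in treated animals. Its difference was 6.58-fold (95% interval 3.35 to 12.9, limma adjusted p = 0.0311). Because of how Nqo1 was chosen, setting this size beside the proteasome genes tests nothing about them.

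**Figure D4:**
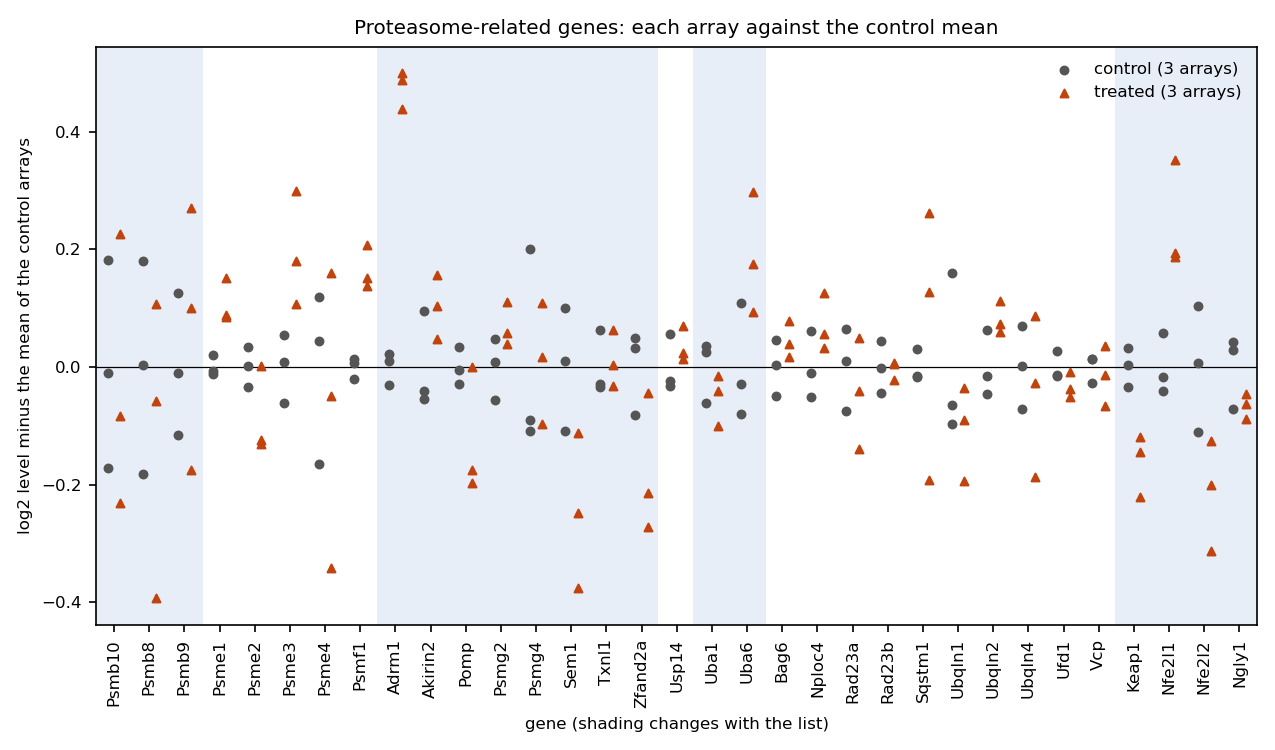
Log2 level of the tested related genes, those for ubiquitin left out, on each array minus the mean of the 3 control arrays, with genes along the x axis grouped by list, circles for control and triangles for treated animals. Adrm1 stands apart, with a log2 fold change of 0.48, and the immunoproteasome genes spread to both sides of 0.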

How the data were processed

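The scanner files give a background-subtracted and detrended Cy3 intensity for each spot, which the authors obtained from Feature Extraction software (Agilent; version 10.7.1.1 per the file headers, 10.7 per the submitters' processing notes) on a design tied to rn4. In the table of values the authors deposited, each number is a ratio, on a linear scale, of that signal to its array's 75th percentile, found by setting it against the scanner values (0.998 of those). No label describes it.

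Values are log2 intensity minus the 75th percentile over 61537 non-control probes. Outlier spots, 1 to 3 on each array, were set to missing (none of a proteasome gene), and 0 spots were saturated. Accessions without versions named 28206 probes through RefSeq (GRCr8). Coordinates are of promoter windows in GRCr8 only. Probes well above background on every array of 1 group or more were kept, the brightest per gene, and 12130 genes were fitted with limma 3.58.1 (R 4.3.3; checked on simulated arrays). The design text calls the animals biological replicates.

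The genes and lists were chosen with earlier results of these data known. Named genes are every called one, the largest increase and decrease per role, the catalytic, receptor, Psmd11 and Psmd14 genes, and per related list the called ones or that with the smallest p; other genes were named after their values were seen. Some genes of the related lists are counted but not reported singly here. Alternatives were background, scaling, filters, value table, variance trend, probe mean, replicate block and leaving out each array. A block for slide could not be fitted, because each slide held 1 group. For normexp, median spot signals stood in for means, which were not used here.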

Additional observations from a re-analysis of the deposited data

How the results depend on the processing

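Without 1 array, 0 proteasome genes were called higher or lower in any of the 6 fits, and the median log2 fold change of the 35 genes ran from -0.10 to -0.076, of the core genes from -0.12 to -0.094, of the cap genes from -0.10 to -0.067, and the core minus cap difference from 0.0066 to 0.018. Calls over all genes were few in those fits (0 in 4 of them), so lost calls say little of single genes. With a normexp background 4 genes were called lower (Psma4, Psma5, Psmb5 and Psmd4), with the trend in the variance prior 2 (Psma5 and Psmd4) and with the stricter filter 1 (Psmd4), and the cause was not tested. No alternative called a proteasome gene higher. The median of the 35 genes was -0.13 with median scaling, -0.054 with quantile scaling and -0.073 with the mean of a gene's probes. That of the core was -0.14 with median scaling, -0.054 with quantile scaling and -0.064 with normexp, and that of the cap -0.11, -0.051 and -0.12. The core minus cap difference of 0.012 was 0.043 with normexp and 0.022 with the stricter filter, which drops Psma8. Without Psmc3ip, Psma8 and the 3 chaperones, an alternative chosen after seeing the data, it was 0.020, the median of the 30 genes left was -0.090, and 0 were called.

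Among related genes, 1 was called higher in the main analysis and 0 without any 1 array, without a filter on dim probes and with the replicate number as a block; with normexp 2 were called lower, Keap1 being 1 of them. The replicate block changed no call among the proteasome genes (0 called) and left 0 calls over all genes; the deviations of same-numbered animals correlated at -0.12, -0.11 and 0.089, so the numbers were not taken as pairs.

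The signs that turned belonged to genes that were not called, most of them near 0 and 2 of them, Psmd6 and Psmd7, without overlap between groups. With normexp these were Psmb6 (0.084), Psmd2 (0.032) and Usp14 (-0.075). With quantile scaling they were Psmb6 (0.016), Psmb7 (0.011), Psmd14 (0.0080) and Psmd2 (0.019). With the mean of a gene's probes they were Psmb3 (-0.053), Psmd6 (0.12), Psmd7 (-0.049), Ubqln2 (-0.064) and Usp14 (-0.025). Over all genes tested, 368 were called higher and 161 lower; these counts were 459 and 507 with normexp, 441 and 395 with the variance trend, 229 and 63 with the mean of probes and 37 and 7 without the filter. Without 1 array, Psmb6 ran from -0.053 to 0.011, Psmb7 from -0.029 to 0.016, Psmc4 from -0.058 to 0.015, Psmd14 from -0.033 to 0.026 and Psmb8 from -0.23 to 0.024. Of 233 values under the other alternatives, 212 were graded the same as in the main analysis. For single genes the grade rested on direction and side of the threshold. Counts had to stay within a set ratio of the main count. Medians and the core minus cap difference were set against the spread between arrays. Only Psma8, on 1 control array, was not well above background.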
